A study of Mus musculus with 8 samples.

Results

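The activation response that depends on Sdha was measured as a difference of differences: the change from unstimulated to stimulated SDHA-KO T cells minus the same change in WT T cells. Member cells were chosen only by their share of RNA from mitochondrially encoded genes. The paper argues that a high share does not mark poor cell health in these data. UMIs (counts of distinct RNA molecules) were summed per library over the 9922 of 12846 cells with less than 10% of their UMIs on mitochondrially encoded genes, in all 8 libraries. Of 20170 genes in the matrix, 14549 passed the filter on low counts and were tested. SDHA-KO cells came from Sdha fl/fl CD4-Cre mice, in which the Cre recombinase is driven by the Cd4 promoter and deletes in cells that pass through the double-positive stage of the thymus. WT cells came from C57BL/6 mice. Mice were 8 to 12 weeks old, and T cells were purified from spleens with magnetic beads. Stimulated cells received anti-CD3 at 5 μg/mL and anti-CD28 at 2.5 μg/mL for 48 hours, unstimulated cells received neither antibody, and each of the 4 groups (WT and SDHA-KO, unstimulated and stimulated) had 2 libraries.

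The groups were not alike in ways that touch every result. The filter kept 99.9% to 100% of the cells of each unstimulated library, 31.8% and 35.5% of the stimulated WT cells (541 and 640), and 80.1% and 83.9% of the stimulated SDHA-KO cells (1320 and 1410). Median UMIs per kept cell were 7572 and 8085.5 in unstimulated WT, 9090 and 8568 in unstimulated SDHA-KO, 61452 and 61306 in stimulated WT, and 29650.5 and 29176 in stimulated SDHA-KO. The authors' CD4 class held 61.9% to 66.9% of cells in the 4 WT libraries and 74.8% to 82.0% in the 4 SDHA-KO libraries. Cells with a UMI of a gamma-delta receptor constant gene (Trdc, Tcrg-C1, Tcrg-C2 or Tcrg-C4) made up 4.31% to 7.5% of cells in the WT libraries, 12% and 9.89% in unstimulated SDHA-KO, and 25.6% and 20.6% in stimulated SDHA-KO. They held 35.5% and 28.5% of all UMIs in the stimulated SDHA-KO libraries. Any such UMI placed a cell in this group, so its share may depend on UMIs per cell and on stray RNA, which was not tested. T cell markers summed to 2485 to 5561 CPM (UMI counts scaled to a common library total) in every library, B cell markers to 112 to 319, and erythroid markers to at most 3.74. Myeloid markers summed to 57.7 to 98.0 CPM in all libraries but stimulated SDHA-KO, where they reached 158 and 159. Of the kept cells' barcode sequences, 7 occurred in more than 1 library. A summed library cannot tell fewer cells of a type from less RNA per cell.

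Sdha encodes the flavoprotein subunit of succinate dehydrogenase, which oxidizes succinate to fumarate in the TCA cycle and passes the electrons into the respiratory chain as complex II. A T cell stimulated through its receptor and CD28 leaves quiescence, grows, divides and turns on effector genes. In doing so it raises glycolysis, amino acid uptake and sterol synthesis, and it turns down the genes of the resting state. Gamma-delta T cells mostly arise without the double-positive stage, so CD4-Cre is not designed to act in them.

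Sdha itself was lower in SDHA-KO in every library. Scaled levels (TMM-scaled CPM, in which TMM evens out differences in library composition) were 92.4 and 94 in unstimulated WT, 78.5 and 77.5 in stimulated WT, 45.1 and 44.6 in unstimulated SDHA-KO, and 32.9 and 30.4 in stimulated SDHA-KO, with no overlap between genotypes. The log2 effect of the deletion was -1.06 ± 0.07 (SE) in unstimulated cells (adjusted p = 0.000286) and -1.30 ± 0.06 in stimulated cells (adjusted p = 2.12e-06). The difference of the responses was -0.24 ± 0.09 and did not pass the test (adjusted p = 0.0983). In cells without gamma-delta UMIs the difference was -0.60 (adjusted p = 0.0018), in the CD4 class it was -0.64, and in the CD8 class it was 0.54, the opposite sign. It was 1.02 (adjusted p = 0.000157) in stimulated cells with 10% or more mitochondrial UMIs. With stimulated cells matched on UMIs per cell it was 0.13, and with all deposited cells 0.04. Gamma-delta UMI cells held 52.8% and 43.6% of the Sdha UMIs in the stimulated SDHA-KO libraries, at 54.5 and 51.6 CPM against 26.9 and 26.6 CPM in the other cells. In the unstimulated SDHA-KO libraries these levels were 60.1 and 44.1 CPM against 40.3 and 43.6.

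The activation response itself was broad in both genotypes. In WT, 10537 genes (72.4% of those tested) changed, and in SDHA-KO 10660 (73.3%). The response differed between the genotypes for 2232 genes (15.3%), with a positive difference for 965 (6.63%) and a negative one for 1267 (8.71%). Differences of at least 1 on the log2 scale, a 2-fold difference in response, were called for 697 genes (4.79%), 283 positive (1.95%) and 414 negative (2.85%). At an unadjusted p under 0.05 there were 4450 (30.6%). SDHA-KO differed from WT for 242 genes (1.66%) in unstimulated and 4997 (34.3%) in stimulated cells. In all 2232 called genes, the 4 SDHA-KO responses (each stimulated library against each unstimulated one) lay on one side of the 4 WT responses, as they did in 48.2% of all genes tested. Without normalization for composition 61.5% of the called genes were positive, against 43.2% as fitted. With all deposited cells 57.8% were positive, and without stimulated SDHA-KO library 1 54.4%. Tex14 (adjusted p = 0.049989) lay just inside the threshold and Tanc1 (adjusted p = 0.050007) just outside.

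**Figure D1:**
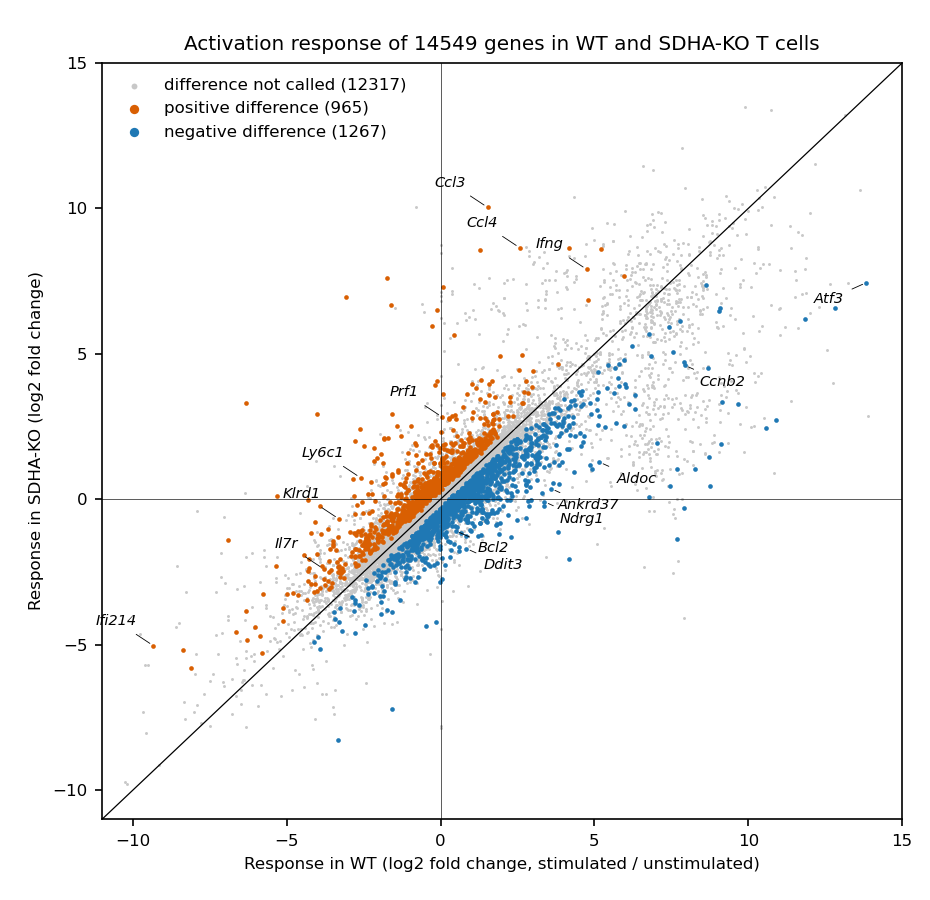
Response in WT (x axis, log2 fold change of stimulated over unstimulated) against the response in SDHA-KO (y axis, same unit) for 14549 genes, with the line of equal response. Orange points mark the 965 genes with a called positive difference and blue points the 1267 with a called negative one, and grey points were not called.

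As fitted, induction weaker in SDHA-KO was called for more genes (540) than stronger induction (299), but this order depended on the cells and scaling used. It turned to 476 against 502 without composition normalization, 563 against 760 with all deposited cells, 431 against 611 with stimulated cells matched on UMIs per cell, and 229 against 277 in the CD8 class. Among the genes that WT cells induced at least 2-fold, 408 were blunted in SDHA-KO (induced less), 128 were lost (under 0.25 of the WT log2 change) and 4 were reversed, while 107 were enhanced. Among the genes that WT cells repressed at least 2-fold, 256 were blunted, 62 lost, 12 reversed and 96 enhanced. A further 192 genes gained an induction and 159 gained a repression that met the 2-fold limit in SDHA-KO only. The remaining 808 called genes met it in neither genotype. None of the 16 reversed genes reached a mean of 20 CPM. Of the 697 differences of at least 1, the SDHA-KO effect was larger in stimulated cells for 518 and larger in unstimulated cells for 179.

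**Figure D2:**
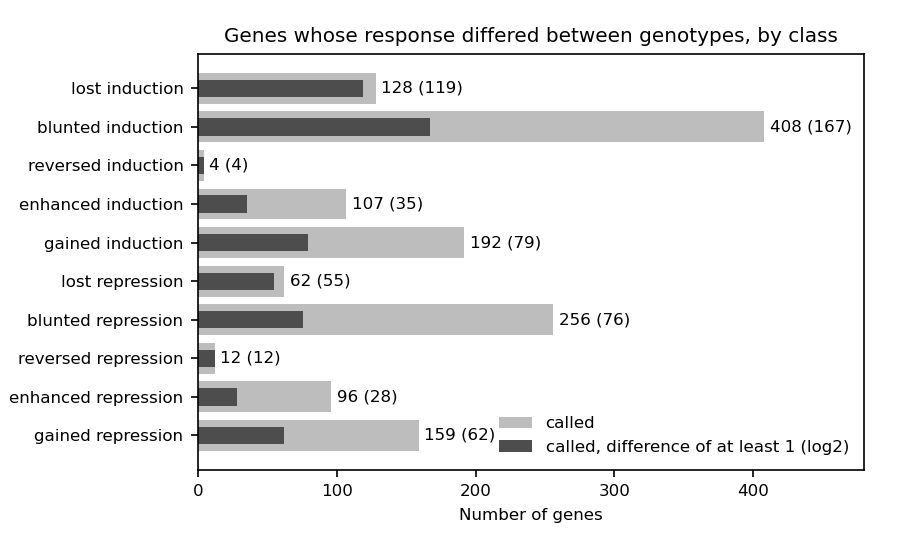
Number of genes called in the difference (light bars) and of those with a difference of at least 1 on the log2 scale (dark bars and numbers in parentheses) in each response class. Blunted induction holds 408 genes, and the reversed classes hold 4 and 12. The 808 called genes that met the 2-fold limit in neither genotype (small) are not drawn.

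Most of the response was kept. The 3475 genes induced in WT (23.9% of those tested) had a median log2 change of 2.21 in WT and 1.86 in SDHA-KO, with a median ratio of 0.861 per gene. The 2642 genes repressed in WT (18.2%) had medians of -1.80 and -1.65 and a median ratio of 0.903. Choosing genes by their WT change favours a ratio under 1, so the reverse choice was also read: the 3367 genes induced in SDHA-KO (23.1%) had a median ratio of 0.988 in WT, and the 2750 repressed in SDHA-KO (18.9%) one of 0.925. Both choices share all 8 libraries. Of the WT-induced genes 540 were called weaker and 107 stronger, and of the SDHA-KO-induced genes 281 were called weaker and 311 stronger in SDHA-KO.

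In each of 8 classes the 3 genes with the largest called difference are described, taken from genes averaging 20 CPM or more whose responses did not overlap between genotypes. Lost induction was led by Ndrg1, Ankrd37 and Gbe1. Ndrg1, a hypoxia-inducible gene of cell growth and stress, was at 4.68 and 5.74 CPM in unstimulated WT, 54.0 and 54.7 in stimulated WT, 10.4 and 10.9 in unstimulated SDHA-KO, and 11 and 9.03 in stimulated SDHA-KO. The WT rise of 3.37 ± 0.13 on the log2 scale had no counterpart in SDHA-KO (-0.09 ± 0.12), a difference of -3.47 ± 0.19 (adjusted p = 2.33e-05). Ankrd37, an ankyrin-repeat gene induced by hypoxia, rose from 4.68 and 4.71 CPM to 58.1 and 55.2 in WT, and was at 13.1 and 12.1 before and 17.8 and 14.6 after stimulation in SDHA-KO (difference -3.23 ± 0.18, adjusted p = 2.45e-05). For both genes the stimulated WT libraries stood above all the others, and the unstimulated SDHA-KO libraries lay above the unstimulated WT ones. Gbe1, the glycogen branching enzyme, rose from 27.2 and 26.8 CPM to 101 and 103 in WT and fell from 27.7 and 30.0 to 17.8 and 15.2 in SDHA-KO (difference -2.73 ± 0.13, adjusted p = 1.14e-05). These 3 calls held under each of the 29 alternatives.

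Blunted induction was led by genes whose unstimulated levels were near 0. Atf3, a stress-induced transcription factor, had 0 UMIs in both unstimulated WT libraries and 65.1 and 69.6 CPM in the stimulated ones. In SDHA-KO it had 4 and 2 UMIs in unstimulated cells and 40.7 and 36.7 CPM in stimulated cells. By share of all UMIs the WT rise was at least 530.5-fold, taking 3 UMIs over the group as the most that 0 allows, and the SDHA-KO rise was 205-fold (95% counting interval 93.9 to 558). The stimulated SDHA-KO libraries were lower by 0.80 ± 0.09 on the log2 scale (adjusted p = 0.000274). The fitted difference of -6.39 (adjusted p = 0.0286) depends on the count of 0. Ccnb2, a mitotic cyclin, was at 0.390 and 0.171 CPM in unstimulated WT, 2.68 and 1.72 in unstimulated SDHA-KO, 65.5 and 71.0 in stimulated WT, and 53.9 and 52.0 in stimulated SDHA-KO (difference -3.33 ± 0.43, adjusted p = 0.00134). Its genotypes lay further apart before stimulation than after. Ifitm2, an interferon-induced membrane protein, was at 0.585 and 0.343 CPM in unstimulated WT and 5.51 and 1.92 in unstimulated SDHA-KO, and its stimulated levels overlapped, at 107 and 115 in WT and 72.2 and 118 in SDHA-KO (difference -3.20 ± 0.93, adjusted p = 0.0471). The Ifitm2 difference was -2.04 (adjusted p = 0.14) in cells without gamma-delta UMIs.

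**Figure D3:**
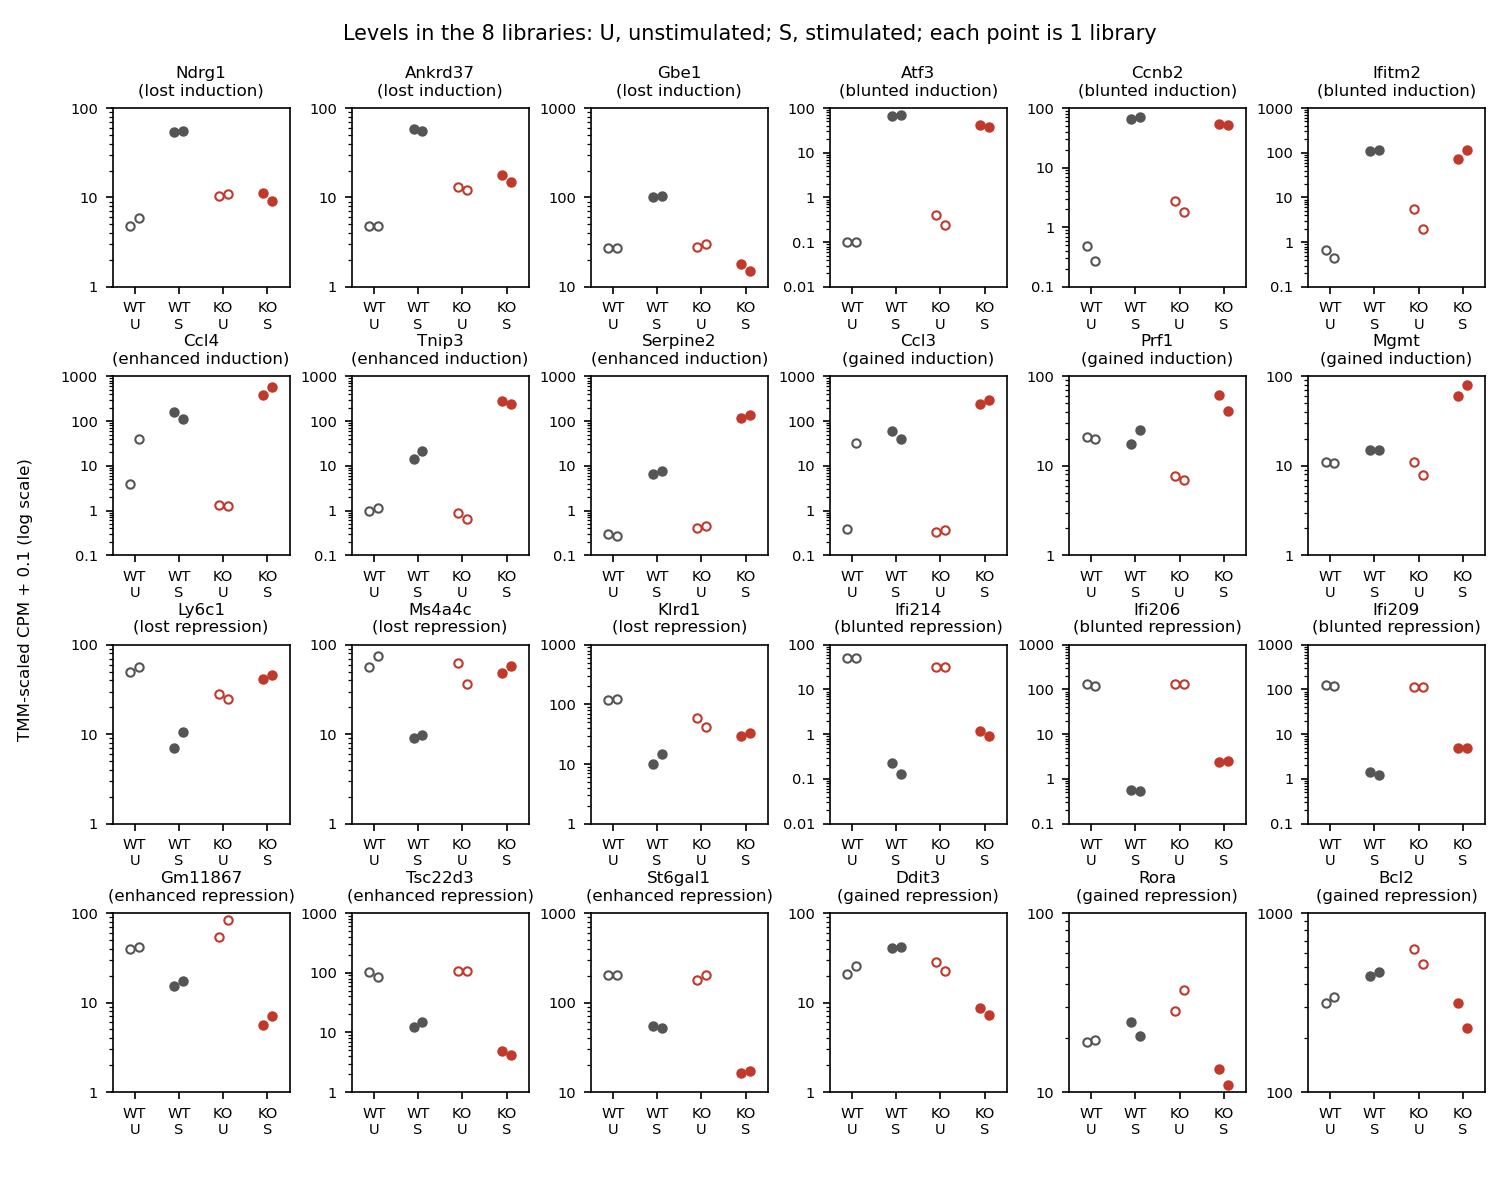
Scaled levels (TMM-scaled CPM plus 0.1, log axis) of the 24 genes with the largest called differences in 8 response classes, with 1 point per library, open for unstimulated (U) and filled for stimulated (S) cells. Stimulated WT libraries stand alone for Ndrg1 and Ankrd37, and stimulated SDHA-KO libraries for Tnip3, Serpine2 and Mgmt.

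Enhanced induction was led by Ccl4, Tnip3 and Serpine2. Tnip3, an inhibitor of NF-κB signaling, rose from 0.878 and 1.03 CPM to 13.9 and 21 in WT and from 0.766 and 0.549 to 283 and 236 in SDHA-KO (difference 4.44 ± 0.83, adjusted p = 0.0074). Serpine2, a secreted protease inhibitor, rose from 0.195 and 0.171 CPM to 6.41 and 7.46 in WT and from 0.306 and 0.343 to 119 and 137 in SDHA-KO (difference 3.38 ± 0.87, adjusted p = 0.0287). For both genes the unstimulated libraries were at or near 1 CPM or less, and the stimulated SDHA-KO libraries were far above stimulated WT. Ccl4, an inflammatory chemokine, was at 3.90 and 40.6 CPM in unstimulated WT, so its WT libraries disagreed, and at 159 and 113 in stimulated WT, 1.22 and 1.17 in unstimulated SDHA-KO, and 389 and 571 in stimulated SDHA-KO. Its difference was 6.08 ± 1.13 (adjusted p = 0.00736), and 3.53 (adjusted p = 0.0395) without unstimulated WT library 2.

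Gained induction was led by Ccl3, Prf1 and Mgmt. Ccl3, a chemokine close to Ccl4 in sequence and use, was at 0.293 and 32.3 CPM in unstimulated WT, 58.5 and 38.9 in stimulated WT, 0.230 and 0.274 in unstimulated SDHA-KO, and 244 and 298 in stimulated SDHA-KO. Its difference was 8.51 ± 1.67 (adjusted p = 0.00917) with all libraries and 2.68 (adjusted p = 0.48) without unstimulated WT library 2. Prf1, the pore-forming protein perforin of cytotoxic cells, was at 21.2 and 20.1 CPM and then 17.3 and 25.1 in WT, which overlap, and rose from 7.58 and 6.93 to 61.9 and 40.9 in SDHA-KO (difference 2.78 ± 0.34, adjusted p = 0.000984). Mgmt, which repairs alkylated guanine in DNA, was at 10.9 and 10.6 CPM and then 14.8 and 15.1 in WT and rose from 10.8 and 7.89 to 60.5 and 79.1 in SDHA-KO (difference 2.43 ± 0.24, adjusted p = 0.000432). In stimulated SDHA-KO the gamma-delta UMI cells held 79.9% and 73.8% of the Prf1 UMIs, 68.6% and 59.2% of the Ccl3 UMIs and 58.7% and 50.9% of the Ccl4 UMIs, but 18.4% and 18.0% of the Mgmt UMIs. Without those cells the Prf1 difference was 1.65 (adjusted p = 0.00095), that of Ccl3 8.70 and that of Ccl4 6.22. In stimulated SDHA-KO 14 and 15 cells held 46.8% and 41.2% of the Ccl3 UMIs and 36.8% and 34.9% of the Ccl4 UMIs. In stimulated WT 6 and 7 cells held 59.2% and 54.0% for Ccl3 and 45.5% and 45.2% for Ccl4.

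Lost repression was led by Ly6c1, Ms4a4c and Klrd1. Ly6c1, a surface antigen of memory T cells, fell from 49.6 and 57.0 CPM to 6.95 and 10.5 in WT and rose from 27.8 and 24.8 to 41.6 and 46.0 in SDHA-KO (difference 3.34 ± 0.23, adjusted p = 6.29e-05). Ms4a4c, a four-pass membrane protein, fell from 56.3 and 75.6 CPM to 8.94 and 9.81 in WT, while its SDHA-KO levels overlapped at 62.0 and 35.9 before and 48.6 and 57.1 after stimulation (difference 2.93 ± 0.32, adjusted p = 0.000686). Klrd1, which encodes the receptor subunit CD94, fell from 118 and 124 CPM to 10.0 and 14.4 in WT and from 58.6 and 41.2 to 29.5 and 32.6 in SDHA-KO (difference 2.62 ± 0.25, adjusted p = 0.000312). In all 3 genes the stimulated SDHA-KO libraries lay above the stimulated WT ones. Gamma-delta UMI cells held 58.8% and 52.4% of the Klrd1 UMIs in stimulated SDHA-KO and 19.2% and 10.2% in stimulated WT. Without those cells the Klrd1 difference was 2.51 (adjusted p = 8.35e-05).

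Blunted repression was led by 3 members of the interferon-inducible PYHIN family, DNA-sensing proteins encoded by a cluster of similar genes. Ifi214 was at 50.7 and 50.1 CPM and then 0.126 and 0.0272 in WT, and at 31.3 and 32.2 and then 1.11 and 0.821 in SDHA-KO (difference 4.30 ± 0.41, adjusted p = 0.00034). Its stimulated WT levels rest on 4 and 1 UMIs, and with cells thinned to 5000 UMIs the difference was 1.46 and did not pass the test (adjusted p = 0.18). Ifi206 (2.31 ± 0.17) and Ifi209 (2.10 ± 0.13) showed the same order, with 2.34 to 4.75 CPM in stimulated SDHA-KO against 0.436 to 1.33 in stimulated WT. Reads of such near copies can be split or lost in counting, which also holds for Ly6c1 and Ms4a4c, so each single value is uncertain. With stimulated cells matched between genotypes on UMIs per cell the differences of Ifi206 and Ifi209 were 1.11 (adjusted p = 0.0229) and 1.32 (adjusted p = 0.00348), and in stimulated cells with 10% or more mitochondrial UMIs they were 1.28 and 1.34 and did not pass the test (adjusted p = 0.158 and 0.102). The Ly6c1 difference was 2.01 in the matched cells and 1.93 in the cells with 10% or more (adjusted p = 0.00279 and 0.00444).

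Enhanced repression was led by Gm11867, a predicted gene, followed by Tsc22d3 and St6gal1. Tsc22d3, a glucocorticoid-induced gene of resting lymphocytes, fell from 103 and 83.5 CPM to 12.2 and 14.9 in WT and from 106 and 109 to 4.82 and 4.01 in SDHA-KO (difference -1.83 ± 0.18, adjusted p = 0.000441). St6gal1, a sialyltransferase, fell from 202 and 205 CPM to 54.5 and 52.4 in WT and from 179 and 204 to 16.3 and 17.1 in SDHA-KO (difference -1.60 ± 0.10, adjusted p = 5.66e-05). The stimulated SDHA-KO libraries lay below the stimulated WT ones for both genes, while the unstimulated libraries of the genotypes overlapped for St6gal1 and SDHA-KO was slightly the higher for Tsc22d3. Gm11867 fell from 40.0 and 41.8 CPM to 15.3 and 17.2 in WT and from 54.4 and 83.8 to 5.56 and 7.0 in SDHA-KO (difference -2.13 ± 0.27, adjusted p = 0.0011).

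Gained repression was led by Ddit3, Rora and Bcl2. Ddit3, which encodes the stress factor CHOP, went from 20.9 and 25.3 CPM to 40.5 and 41.8 in WT and from 28.6 and 22.2 to 8.51 and 7.14 in SDHA-KO (difference -2.53 ± 0.20, adjusted p = 0.000136). Bcl2, the anti-apoptotic founder of its family, went from 315 and 338 CPM to 446 and 468 in WT and from 626 and 520 to 312 and 227 in SDHA-KO (difference -1.57 ± 0.19, adjusted p = 0.00105). The genotypes thus crossed over for Bcl2: SDHA-KO was above WT before stimulation and below it after. Rora, a nuclear receptor of lymphoid lineages, was at 18.9 and 19.5 and then 24.6 and 20.5 CPM in WT, and fell from 28.4 and 37.1 to 13.4 and 10.9 in SDHA-KO (difference -1.66 ± 0.22, adjusted p = 0.00137). All 3 calls held under each of the 29 alternatives.

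Among 21 lists of T cell and metabolic genes, 4 had medians below -1: hypoxia-inducible genes, sterol biosynthesis, the integrated stress response and glycolysis. Over all genes tested the median difference was -0.05, and 15.3% were called, 6.63% with a positive and 8.71% with a negative difference. Called members made up 80% of the glycolysis list, 60% of quiescence genes, 55.2% of the integrated stress response and 47.1% of cytotoxic granule genes. They made up 27.8% of inhibitory receptor genes and 27.6% of survival and death genes. Of the 5626 tested genes averaging 20 CPM or more, 1386 were called, and list shares were not adjusted for expression level. These counts and medians describe the lists, and no test of a list was made.

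**Figure D4:**
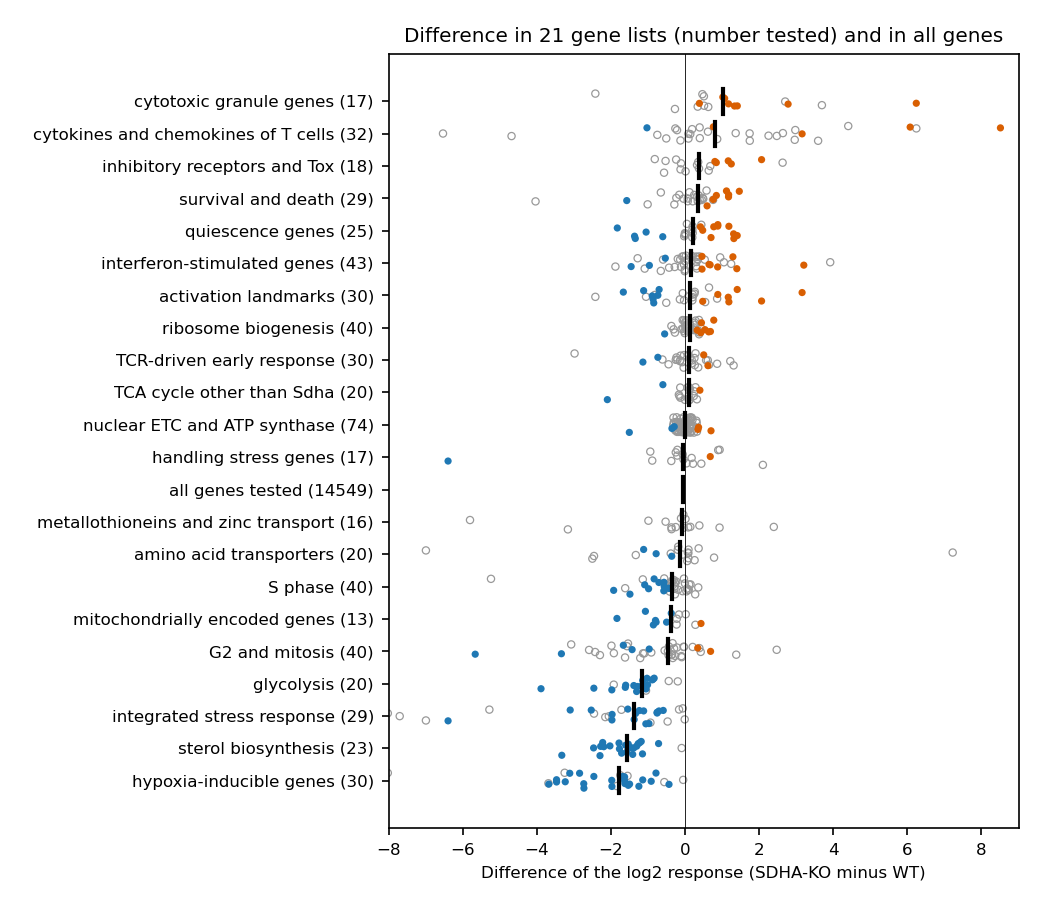
Difference of the log2 response (SDHA-KO minus WT) of each member of 21 gene lists, with list medians as black bars, filled points for called members and open points for the others. Numbers in parentheses give the members tested, and the 4 lowest medians lie between -1.79 and -1.15, while the median of all genes is -0.05.

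Hypoxia-inducible genes are targets of the transcription factor HIF, whose alpha subunits are marked for breakdown by prolyl hydroxylases such as those encoded by Egln1 and Egln3. Of the 30 members tested, 22 (73.3%) were called, all with a negative difference, beside 8.71% of all genes tested, and the median difference was -1.79. The median change of the members was 3.46 on the log2 scale in WT and 1.36 in SDHA-KO. Vegfa, the vascular growth factor, was at 0.195 and 0.343 CPM in unstimulated WT, 15.7 and 19.0 in stimulated WT, 0.612 and 1.10 in unstimulated SDHA-KO, and 6.17 and 3.70 in stimulated SDHA-KO (difference -3.46). Bnip3, a mitophagy receptor, rose from 2.93 and 3.0 CPM to 143 and 168 in WT and from 3.29 and 3.91 to 31.6 and 12.5 in SDHA-KO (difference -3.11). Selenbp1, a selenium-binding protein, had the largest called difference, -3.68 ± 0.68 (adjusted p = 0.00709), at 0.480 to 0.857 CPM in the unstimulated libraries, 21 and 26.6 in stimulated WT and 1.58 and 0.899 in stimulated SDHA-KO. Egln3 went from 1.76 and 2.74 CPM to 150 and 170 in WT but to 25.5 and 17.1 in SDHA-KO, from 2.07 and 2.26. Pdk1, which restrains entry of pyruvate into the TCA cycle, fell in both genotypes, from 118 and 115 CPM to 69.4 and 72.7 in WT and from 113 and 113 to 33.2 and 25 in SDHA-KO. The other 8 members were not called, among them Wsb1, which had a difference of -0.05 (adjusted p = 0.878). The list median ranged from -2.23 to -1.58 over the alternatives.

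HIF binds DNA at a core of the letters ACGTG. These letters, on either strand and including those inside the E-box CACGTG, were looked up in the 250 bases before each gene start in RefSeq promoters of GRCm38.p6, the build that the submitters' mm10 corresponds to. At least 1 window held them for 15 of the 23 list members with an entry (65.2%), for 11 of the 17 called members with an entry (64.7%), for 25% of the 10774 tested genes with an entry and for 18.5% of all 27025 genes in the table. Of the 24 genes named by class 20 had an entry, and 4 of these held the letters. A match is not a bound site. The windows of Selenbp1, Vegfa and Ankrd37, among the members with the largest called differences, are shown because they carry both outcomes, with every match in capitals. Vegfa has 2 annotated starts, and Ndrg1 is named only.
Selenbp1, chr3:94932833-94933082, plus strand: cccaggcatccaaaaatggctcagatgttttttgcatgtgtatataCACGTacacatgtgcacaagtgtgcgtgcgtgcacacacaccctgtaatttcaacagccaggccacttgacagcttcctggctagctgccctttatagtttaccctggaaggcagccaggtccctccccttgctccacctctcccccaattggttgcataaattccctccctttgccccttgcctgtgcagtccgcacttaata
Vegfa, upstream start, chr17:46032378-46032627, minus strand: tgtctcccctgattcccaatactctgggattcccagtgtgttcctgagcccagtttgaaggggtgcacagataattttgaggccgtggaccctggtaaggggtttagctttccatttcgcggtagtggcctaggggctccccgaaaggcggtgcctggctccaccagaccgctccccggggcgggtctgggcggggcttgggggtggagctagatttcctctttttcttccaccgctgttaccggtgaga
Vegfa, downstream start, chr17:46025164-46025413, minus strand: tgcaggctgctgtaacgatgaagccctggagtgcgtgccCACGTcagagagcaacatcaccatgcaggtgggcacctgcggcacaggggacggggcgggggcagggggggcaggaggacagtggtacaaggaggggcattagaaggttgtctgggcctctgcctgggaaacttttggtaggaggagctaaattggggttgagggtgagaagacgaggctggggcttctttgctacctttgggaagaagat
Ankrd37, chr8:45999851-46000100, minus strand: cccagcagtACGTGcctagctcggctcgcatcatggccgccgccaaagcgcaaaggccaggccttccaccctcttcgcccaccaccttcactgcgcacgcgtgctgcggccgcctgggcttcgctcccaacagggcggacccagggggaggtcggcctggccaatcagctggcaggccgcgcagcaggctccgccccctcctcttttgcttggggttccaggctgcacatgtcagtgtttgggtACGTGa
The Selenbp1 window held 1 match, the Vegfa windows 0 and 1, and the Ankrd37 window 2.

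Glycolysis turns glucose into pyruvate and lactate. All 20 members were induced in WT and 19 in SDHA-KO, by a median of 3.24 and 1.87 on the log2 scale. Of these, 16 had a called negative difference and none a positive one, with a median difference of -1.15. Gapdh, a central enzyme of the pathway, rose from 353 and 348 CPM to 5434 and 5710 in WT and from 377 and 370 to 2609 and 2201 in SDHA-KO (difference -1.30 ± 0.11, adjusted p = 0.000237). The largest called difference was that of Aldoc, an aldolase, at -3.88 ± 0.41, which rose from 0.683 and 1.03 CPM to 28.8 and 33.3 in WT and from 1.30 and 0.892 to 2.87 and 2.40 in SDHA-KO. Slc2a3, a glucose transporter, rose from 26.6 and 27.7 CPM to 221 and 256 in WT and from 25.1 and 22.7 to 44.7 and 31.5 in SDHA-KO (difference -2.46). Ldha, which makes lactate, had a smaller difference of -0.88, and of -0.36 (adjusted p = 0.0812) in stimulated cells with 10% or more mitochondrial UMIs. Hk2, the induced hexokinase, had -1.05 (adjusted p = 0.0768). Of the 16 called genes, Aldoc, Slc2a3 and Pfkm (-1.38) kept under 0.25 of the WT log2 change and the other 13 were blunted.

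The integrated stress response couples amino acid shortage and mitochondrial stress to the factor ATF4, which turns on amino acid synthesis and tRNA charging. Of 29 members tested 16 were called, all negative, with a median of -1.37. Atf4 itself rose from 43.4 and 44.6 CPM to 183 and 170 in WT and from 51.7 and 46.2 to 129 and 112 in SDHA-KO (difference -0.70 ± 0.13, adjusted p = 0.00614). Trib3, a pseudokinase induced by ATF4, rose from 1.46 and 1.46 CPM to 19.5 and 17.6 in WT, and was at 1.91 and 2.20 before and 4.12 and 1.99 after stimulation in SDHA-KO (difference -3.10). Among synthesis enzymes, Psat1 (-1.37), Psph (-1.33) and Phgdh (-1.06) of serine synthesis were called, as were the tRNA synthetase genes Cars (-1.97), Nars (-1.54), Sars (-1.23), Aars (-0.97) and Gars (-0.75). Shmt2 (-0.75) and Mthfd2 (-0.59) of mitochondrial one-carbon metabolism were called as well. Asns (-2.06, adjusted p = 0.424) and Ppp1r15a (-0.16, adjusted p = 0.688) were not.

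Sterol biosynthesis, run by the factor SREBP2, was the list with the highest share of members called, 95.7%. All 23 members were induced in WT and 14 in SDHA-KO, by a median of 2.24 and 0.48. All but Ebp (-0.09, adjusted p = 0.596) had a called negative difference, 22 in all, with a median of -1.57. Hmgcs1, which makes HMG-CoA, rose from 15.5 and 17.3 CPM to 121 and 122 in WT and from 22 and 24 to 31.7 and 30.0 in SDHA-KO (difference -2.47 ± 0.11, adjusted p = 1.14e-05). Lss, which closes the sterol ring, rose from 1.85 and 2.14 CPM to 27.8 and 29.6 in WT and from 4.36 and 5.21 to 7.05 and 6.65 in SDHA-KO (difference -3.32 ± 0.20, adjusted p = 4.65e-05). Msmo1, a later enzyme of the pathway, was at 22.5 and 22.8 CPM before and 23.3 and 20.8 after stimulation in SDHA-KO, while WT rose from 20.1 and 19.3 to 89.6 and 85.0. Srebf2, which encodes SREBP2 (-0.71), was also called. The list median ranged from -1.74 to -1.20 over the alternatives.

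Respiratory chain genes lie in the nuclear and the mitochondrial genome. Of 74 nuclear genes of the respiratory chain and ATP synthase, 3 had a called positive and 3 a called negative difference, and the median of 0.01 changed sign under 9 of 29 alternatives and was 0.42 with all deposited cells. Called genes were 8.11% of this list, under the 15.3% of all genes tested. The largest were Ndufb10 (0.70 ± 0.10, adjusted p = 0.00228) and Ndufv3 (-1.50 ± 0.12, adjusted p = 0.000138), both of complex I. Ndufv3 rose from 145 and 154 CPM to 324 and 360 in WT and was at 156 and 148 before and 131 and 114 after stimulation in SDHA-KO. The other subunits of complex II, Sdhb (0.13), Sdhc (0.09) and Sdhd (0.07), were not called. Of 13 mitochondrially encoded genes 7 had a called negative and 1 a called positive difference, with a median of -0.37, which was -1.06 with all deposited cells and 0.18 in stimulated cells with 10% or more mitochondrial UMIs. mt-Co1, of complex IV, was at 5661 and 5671 CPM and then 5742 and 6071 in WT and fell from 7117 and 6669 to 3406 and 3451 in SDHA-KO. mt-Nd6, which lies on the light strand, rose from 40.1 and 38.7 CPM to 83.0 and 76.2 in WT and fell from 89.5 and 89.0 to 53.5 and 47.6 in SDHA-KO (difference -1.84 ± 0.11, adjusted p = 4.5e-05). mt-Nd1 had a difference of 0.43, but of -0.27 when all deposited cells were used. The filter on cells uses the UMIs of these 13 genes, so their levels are not independent of it. Of 20 other TCA cycle genes, Idh1 (-2.09) and Cs (-0.60) had called negative differences and Idh2 (0.40) a positive one, 15% of the list beside 15.3% of all genes tested. The Idh2 call was lost under 19 of 29 alternatives.

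Nearly all cell cycle genes were induced in both genotypes: all 40 S phase genes in each, and of the 40 genes of G2 and mitosis 38 in WT and 39 in SDHA-KO. Of the S phase genes 11 had called negative differences (median -0.36), and of the genes of G2 and mitosis 5 had negative and 2 positive ones (median -0.45). Called genes were 27.5% of the S phase list and 17.5% of the G2 and mitosis list, beside 15.3% of all genes tested. The median SDHA-KO effect was 0.28 in unstimulated and -0.08 in stimulated cells for S phase, and 0.57 and -0.09 for G2 and mitosis. Mki67, a proliferation marker, was at 0.878 and 0.943 CPM in unstimulated WT, 1.91 and 2.88 in unstimulated SDHA-KO, 198 and 209 in stimulated WT, and 187 and 154 in stimulated SDHA-KO (difference -1.66 ± 0.38, adjusted p = 0.0187). Its difference was -0.91 (adjusted p = 0.245) in cells without gamma-delta UMIs. Chaf1a, a chromatin assembly factor of S phase, had a difference of -1.92 and levels of 43.4 and 41.8 against 37.6 and 35.1 CPM in stimulated cells. Nuf2, of the kinetochore, had 0 UMIs in unstimulated WT and 7 in unstimulated SDHA-KO, so its rises were at least 134-fold in WT and 85.4-fold (95% counting interval 41.4 to 213) in SDHA-KO. Its call was lost under 20 of 29 alternatives. Pttg1, securin of mitosis, fell in WT (-0.34, adjusted p = 0.0127) and had a positive difference of 0.69, with stimulated SDHA-KO above stimulated WT by 0.59 on the log2 scale (adjusted p = 0.00124). Pcna, the replication clamp, had a difference of 0.11 (adjusted p = 0.472).

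Of 30 genes of the TCR-driven early response, Tnfrsf9 (-1.14) and Tnfrsf4 (-0.73), both costimulatory receptors, had called negative differences, and Dusp5 (0.62), a phosphatase of ERK, and Nfkbia (0.51), an inhibitor of NF-κB, positive ones. These 4 are 13.3% of the list, under the 15.3% of all genes tested. Myc, a driver of growth, rose from 27.4 and 30.4 CPM to 81.0 and 98.6 in WT and from 32.3 and 31.8 to 92.3 and 103 in SDHA-KO (difference -0.03 ± 0.15). Nr4a1 (0.27), Irf4 (0.65) and Cd69 (0.26) did not pass the test either. The list median of 0.11 was -0.17 in stimulated cells with 10% or more mitochondrial UMIs. The Dusp5 call was lost in those cells (0.15, adjusted p = 0.684) and in stimulated cells matched on UMIs per cell (0.45, adjusted p = 0.101). It was lost under 10 of 29 alternatives.

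Of the 30 activation landmarks 7 had called positive and 7 called negative differences. The negative ones were Mki67, Slc7a5 (-1.12), Ldha, Slc2a1 (-0.86), Il2ra (-0.84), Tnfrsf4 and Tfrc (-0.70), which include carriers of amino acids, glucose and iron. In WT 23 landmarks rose and 7 fell, and by class the calls were 7 weaker inductions, 3 stronger inductions and 4 weaker repressions. Called genes were 46.7% of this list, beside 15.3% of all genes tested. Tfrc, the transferrin receptor, rose from 12 and 12.3 CPM to 170 and 175 in WT and from 14.8 and 15.2 to 138 and 124 in SDHA-KO (adjusted p = 0.00497), but its difference was 0.01 in stimulated cells with 10% or more mitochondrial UMIs. Il2ra, the high-affinity IL-2 receptor chain, was at 16.7 and 17.7 and then 316 and 333 CPM in WT and at 32.2 and 31.0 and then 380 and 284 in SDHA-KO, where stimulated levels overlapped. Il2 (-0.51, adjusted p = 0.713), Tnf (0.09, adjusted p = 0.826) and Cd44 (0.55, adjusted p = 0.0516) were not called. Gzmb, granzyme B, rose from 0.683 and 0.428 CPM to 1502 and 1957 in WT and from 5.28 and 2.13 to 2430 and 1831 in SDHA-KO, and was not called (-2.42, adjusted p = 0.0681).

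Quiescence genes split in both directions. Of 25, most of which fell with stimulation, 10 had a called positive difference (weaker repression in most) and 5 a negative one. Il7r, the receptor of the survival cytokine IL-7, fell from 473 and 460 CPM to 30.2 and 36.4 in WT and from 358 and 367 to 80.5 and 57.2 in SDHA-KO (difference 1.41 ± 0.20, adjusted p = 0.00201). Klf2, which maintains quiescence and trafficking, fell from 743 and 790 CPM to 12.9 and 13.1 in WT and from 738 and 703 to 30.5 and 25.1 in SDHA-KO (difference 1.18 ± 0.13, adjusted p = 0.000641). Matched on UMIs per cell, the differences of Klf2 (0.33) and Tcf7 (0.23) did not pass the test, and that of Il7r (1.43, adjusted p = 0.000706) did. On the other side, Tsc22d3, Cdkn1b (-1.36), which restrains cyclin-dependent kinases, Pik3ip1 (-1.34), which restrains PI3K, Txnip (-1.05), which restrains glucose uptake, and Tob1 (-0.60) had the negative differences. Cdkn1b fell from 96.4 and 93.7 CPM to 35.4 and 33.1 in WT and from 93.9 and 121 to 17.0 and 13.2 in SDHA-KO. The list median of 0.21 was -0.20 in the CD8 class and 0.45 in the CD4 class.

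Cytotoxic granule genes arm killer T cells. Of 17 cytotoxic granule genes tested 8 had a called positive difference and none a negative one, with a median of 1.02. Gzmb, not called as fitted (-2.42), had a called negative difference of -3.56 (adjusted p = 0.00468) in cells without gamma-delta UMIs. In stimulated SDHA-KO gamma-delta UMI cells held 74% and 68% of the Gzmb UMIs. Nkg7, a granule membrane protein, was at 210 and 222 and then 207 and 235 CPM in WT and rose from 172 and 127 to 389 and 381 in SDHA-KO (difference 1.34 ± 0.17, adjusted p = 0.00125). Serpinb9, which shields cells from granzyme B, rose from 6.54 and 5.91 CPM to 47.9 and 50.9 in WT and from 7.81 and 7.13 to 159 and 157 in SDHA-KO (difference 1.41). Gzmc, a granzyme with close paralogs, was below 0.4 CPM in the WT libraries and reached 59.2 and 45.7 in stimulated SDHA-KO, where gamma-delta UMI cells held 96% of its UMIs in each library and 14 and 15 cells held 82.7% and 94.5% of them. Without the gamma-delta UMI cells the Gzmc difference was 3.01 (adjusted p = 0.0184) in place of 6.24. NK cell markers, which include Prf1 and Gzma of cytotoxic T cells, summed to 369 and 99.3 CPM in stimulated SDHA-KO against 33.9 and 45.7 in stimulated WT, and Klra8 was at 0 in every library. Their part in the result was not tested.

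Of 32 cytokine and chemokine genes 4 had a called positive difference and 1 a negative one, 15.6% in all beside 15.3% of all genes tested, with a median of 0.82. Ifng, the main type 1 effector cytokine, rose from 2.93 and 14.5 CPM to 174 and 307 in WT and from 4.59 and 5.76 to 1547 and 948 in SDHA-KO (difference 3.16 ± 0.79, adjusted p = 0.0263). In stimulated SDHA-KO 71.8% and 76.5% of its UMIs lay in gamma-delta UMI cells, and without them the difference was 3.17 (adjusted p = 0.0493). Few cells held much of the Ifng: 14 and 15 cells held 49.0% and 54.6% of its UMIs in stimulated SDHA-KO. In stimulated WT 6 and 7 cells held 57.3% and 42.9%. Tnfsf8, the CD30 ligand, had a difference of 0.77. Ltb, lymphotoxin beta, fell further in SDHA-KO, from 844 and 741 CPM to 117 and 159, than in WT, from 899 and 970 to 344 and 320 (difference -1.03 ± 0.18, adjusted p = 0.00556). Il10 (10.84, adjusted p = 0.0621), Il17f (-6.53, adjusted p = 0.0653), Areg (2.98, adjusted p = 0.0713) and Il2 were not called.

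Of 18 inhibitory receptor genes 5 had a called positive difference and none a negative one, with a median of 0.37. Pdcd1, which encodes PD-1, rose from 4.78 and 6.08 CPM to 16.1 and 12.9 in WT and from 4.90 and 3.22 to 21.1 and 27.0 in SDHA-KO (difference 1.17 ± 0.32, adjusted p = 0.0379), and its ligand gene Pdcd1lg2 had a difference of 1.25. Cd200 (0.81) and Cd160 (0.85), both ligands or receptors of inhibition, were called as well. Lag3, a receptor for MHC class II, had a difference of 2.07 (adjusted p = 0.0472), with unstimulated levels of 1.46 and 4.63 CPM in WT and 1.38 and 0.412 in SDHA-KO and stimulated levels of 81.5 and 90.5 against 105 and 95.5, which did not overlap. Its difference was -2.55 in the CD8 class, and its call was lost, with the direction kept, under 15 of 29 alternatives. Ctla4 (-0.81, adjusted p = 0.0595) and Tox (-0.24, adjusted p = 0.591) were not called.

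Of 29 survival and death genes 7 had a called positive difference and 1, Bcl2, a negative one. Positive differences were called for Tnfrsf10b (1.47), a death receptor, Bax (1.18), a pore-forming pro-apoptotic protein, Fasl (1.18), Trp53inp1 (1.12), Fas (0.76) and Mdm2 (0.60). Tnfrsf10b, Bax, Trp53inp1, Fas and Mdm2 are known targets of p53, as background. Bax rose from 94.6 and 96.5 CPM to 183 and 185 in WT and from 124 and 104 to 448 and 548 in SDHA-KO (adjusted p = 0.00121). Trp53inp1 fell from 42.1 and 42.1 CPM to 13.5 and 14.0 in WT, and was at 45.4 and 45.8 before and 29.8 and 34.9 after stimulation in SDHA-KO. Cdkn1a, another p53 target, was not called (0.58, adjusted p = 0.635).

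The other lists showed mixed or small differences. Of 43 interferon-stimulated genes 8 had called positive and 3 called negative differences, from Rtp4 (3.21) to Dhx58 (-1.45), and Rtp4 was at 0.0316 and 0.109 CPM in stimulated WT, which rest on 1 and 4 UMIs. The Rtp4 call was lost with limma voom (3.20, adjusted p = 0.064), with cells thinned to 5000 UMIs (1.19, adjusted p = 0.382), in the CD8 class (4.44, adjusted p = 0.0725), in stimulated cells with 10% or more mitochondrial UMIs (0.75, adjusted p = 0.872) and in cells matched on UMIs (2.15, adjusted p = 0.102). Of 40 ribosome biogenesis genes 7 had positive differences of 0.33 to 0.78 (Bysl), and Npm1 (-0.55), the nucleolar phosphoprotein, had a negative one, which was 0.07 in the CD8 class. The Npm1 call was also lost with all deposited cells (-0.08, adjusted p = 0.665), in stimulated cells with 10% or more mitochondrial UMIs (-0.07, adjusted p = 0.775) and in cells matched on UMIs (-0.13, adjusted p = 0.511). The list medians of 0.18 and 0.13 changed sign under 2 and 3 alternatives. Of 20 amino acid transporters Slc7a5, Slc43a2 (-0.78) and Slc1a5 (-0.36) were called. By edgeR's test 0 of 16 metallothionein and zinc transport genes were called (lowest adjusted p = 0.0539), and 5 had an unadjusted p under 0.05. Of 17 genes that rise with handling of cells, Atf3 and Fos (0.68) were called, and the list median was -0.04. Called genes were 25.6% of the interferon-stimulated list and 20% of the ribosome biogenesis list. They were 15% of the amino acid transporters and 11.8% of the handling genes, beside 15.3% of all genes tested.

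The authors' CD4 and CD8 classes were also fitted apart. In CD4-class cells 1951 of 13710 genes (14.2%) were called in the difference, and in CD8-class cells 1397 of 12600 (11.1%). In stimulated SDHA-KO, Sdha was at 27.9 and 27.7 CPM in the CD4 class and 50.9 and 49.2 in the CD8 class. In unstimulated SDHA-KO it was at 45.8 and 46.7 CPM in the CD4 class and 35.7 and 34.5 in the CD8 class. No CD8-class fit without gamma-delta UMI cells was run. Ndrg1 had differences of -3.41 ± 0.21 and -3.45 ± 0.38, Gbe1 of -2.82 ± 0.17 and -2.52 ± 0.15, and Ddit3 of -2.39 ± 0.22 and -2.71 ± 0.20. Slc7a5, the large neutral amino acid carrier, had -1.63 ± 0.17 (adjusted p = 0.000161) in the CD4 class and -0.37 ± 0.19 (adjusted p = 0.26) in the CD8 class. Klf2 had 1.32 ± 0.19 and -0.16 ± 0.12, Npm1 -1.01 ± 0.11 and 0.07 ± 0.10, and Ifng 4.80 ± 0.80 and 1.79 ± 1.27. Ctla4 (-1.80, adjusted p = 0.0151) and Icos (-0.77, adjusted p = 0.0213) were called in the CD8 class and not in the CD4 class. Whether the classes differ was not tested.

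**Figure D5:**
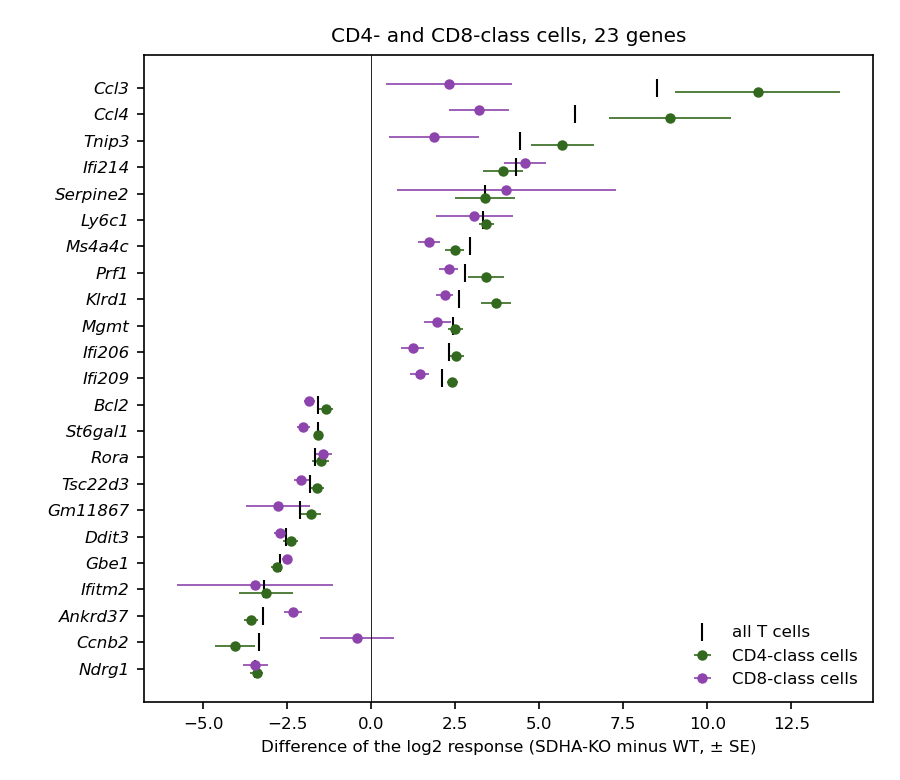
Difference of the log2 response (SDHA-KO minus WT) ± SE in CD4-class (green) and CD8-class (purple) cells for 23 genes with the largest differences by class, with the value in all T cells as a black tick. Atf3 is left out because its CD8-class error exceeds the axis, and the point estimates of each gene share a sign. All 23 passed the test in the CD4 class and 15 in the CD8 class, where Ccnb2 (-0.43, adjusted p = 0.874), Ifitm2 (-3.46, 0.465), Tnip3 (1.86, 0.42), Serpine2 (4.02, 0.484), Ccl3 (2.31, 0.487), Ly6c1 (3.07, 0.114), Gm11867 (-2.77, 0.0854) and Ifi206 (1.23, 0.0625) did not.

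The comparison was repeated in the stimulated cells that the filter left out and with the stimulated cells, but not the unstimulated ones, matched between genotypes on UMIs per cell in bins of 10000. With stimulated cells of 10% or more mitochondrial UMIs against the same unstimulated cells, 2260 genes were called, 1164 of them shared, and the medians of hypoxia-inducible genes (-1.80), glycolysis (-1.03), the integrated stress response (-1.25), sterol biosynthesis (-1.20) and cytotoxic genes (1.43) kept their sign. Matched on UMIs per cell, 2726 genes were called, 1652 shared, and these medians were -1.95, -1.01, -1.03, -1.47 and 1.01. Matching kept 377 cells of each stimulated library, at median UMIs per cell of 51790 to 53616. Before matching, gamma-delta UMI cells in stimulated SDHA-KO had medians of 40160 and 40840 UMIs, against 27850 and 27400 in the other cells. Whether matching also changed the mix of cells was not tested. The difference of Sdha itself was 1.02 (adjusted p = 0.000157) in the cells of 10% or more. In the matched cells it was 0.13, against -0.24 as fitted. Other list medians turned sign. With cells of 10% or more, that of quiescence genes was -0.0047, interferon-stimulated genes -0.21, the TCR-driven early response -0.17, mitochondrially encoded genes 0.18, nuclear respiratory chain genes -0.02, amino acid transporters 0.03, metallothionein and zinc transport genes 0.03 and handling genes 0.03. In the matched cells, that of quiescence genes was -0.04, interferon-stimulated genes -0.05, activation landmarks -0.04 and handling genes 0.16. Both settings were chosen after seeing the data.
Among the 61 named genes called, 35 calls held without each library in turn and 26 were lost without 1 or more. The adjusted p-values of the lost calls reported here follow, with U for unstimulated and S for stimulated libraries.
Atf3 lost the call without WT U 1 (0.088), WT U 2 (0.11), KO U 1 (0.11) or WT S 2 (0.054). Ifitm2 lost it without WT U 1 (0.14), WT U 2 (0.2), KO U 1 (0.2), WT S 1 (0.073) or WT S 2 (0.079). Serpine2 lost it without any single unstimulated library (0.062 to 0.15), Tnip3 without WT U 2 (0.079), Ccl4 without KO U 2 (0.053), and Ccl3 without WT U 2 (0.48) or KO U 2 (0.062). Among effector genes, Ifng lost it without WT U 2 (difference 1.55, 0.42), either KO U library (0.092 and 0.093) or WT S 1 (0.053). Lag3 lost it without WT U 2 (difference 0.97, 0.41), KO U 2 (0.22) or either WT S library (0.093 and 0.075), Pdcd1 without either WT U library (0.078 and 0.2), KO U 2 (0.16) or WT S 2 (0.09), and Gzmc without WT U 1 (0.079). Of the cell cycle genes, Mki67 (0.091 to 0.11) and Chaf1a (0.052 to 0.1) lost it without either WT U library or KO U 2, Nuf2 without any library but KO S 1 (0.056 to 0.2), and Pttg1 without WT U 2 (0.059). Il2ra lost it without any U library or WT S 2 (0.057 to 0.087), Tnfrsf9 without either WT U library or KO U 1 (0.053 to 0.1), Tnfrsf4 without WT U 2 (0.059), Slc2a1 without WT U 1 (0.075) or KO U 2 (0.073), and Selenbp1 without KO U 1 (0.057). Dusp5 lost it without WT U 1 (difference 0.44), either KO U library or WT S 1 (0.081 to 0.18), and Fos without any library but KO U 2 and KO S 2 (0.056 to 0.17). Idh2 lost it without any library but KO S 1 (0.085 to 0.17), Npm1 without WT U 1 (0.072) or WT S 1 (0.053), mt-Nd1 without either WT U library, KO U 2 or WT S 2 (0.052 to 0.093), and Tex14 without any library but WT U 1 and KO S 2 (0.064 to 0.19).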

How the data were processed

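Splenic T cells were profiled by droplet-based single-cell RNA sequencing in 8 libraries, 2 for each genotype and state. The submitters' processing notes name bcl2fastq, Cell Ranger and the mm10 build, and versions were not given in the sources used here. Using Seurat, the authors dropped clusters lacking CD3 transcripts and cells with too many detected genes. Their methods name no separate step for doublets (droplets holding several cells), and none was run here. They deposited a matrix of raw UMI counts, and beside it a table of cells with counts of UMIs and detected genes, the percent of UMIs on mitochondrial genes (percent.mt) computed by the authors, and their CD4 or CD8 class of each cell. Its totals and percentages were checked against the matrix.

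UMIs of cells with percent.mt under 10 were summed per library, since cells of 1 library are not replicates. The 20170 genes were filtered with filterByExpr (minimum count 10, minimum total 15), which left 14549, scaled with TMM, and tested with edgeR 4.0.16 (glmQLFit and glmQLFTest; R 4.3.3) in a fit of 4 groups over 8 libraries with 4 residual degrees of freedom. The difference was the SDHA-KO response minus the WT response. An adjusted p (Benjamini-Hochberg over all genes tested) under 0.05 was called. The fit was also run on simulated counts with the same spread for all genes and groups, so that run does not cover unequal spread. In the study, a Wilcoxon test was run over single cells. The summed libraries held 10947009 to 46063493 UMIs, and the relative spread between replicates, pooled over groups, was 8.65%. Between replicates, chi-square per degree of freedom was 2.06 in unstimulated WT, 7.59 in stimulated WT, 7.87 in unstimulated SDHA-KO and 16.4 in stimulated SDHA-KO. Counting noise alone would give about 1, and the measure also grows with depth. The fit used 1 spread per gene for all 4 groups. Counting intervals are exact binomial ones and, like the limits from counts of 0, cover counting error only. The labels do not state whether replicates came from separate mice, so the p-values measure the spread between these samples, which may be technical.

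A responder had an adjusted p under 0.05 and a log2 change of at least 1 in size. Called genes were classed by the ratio of the SDHA-KO to the WT log2 change (lost under 0.25, blunted up to 1, enhanced above 1, gained where only SDHA-KO responded, reversed where both responded in opposite directions, small for the rest). Named genes were Sdha, the 3 largest differences in each class taken from genes averaging 20 CPM or more whose 4 SDHA-KO responses lay on one side of the 4 WT responses, the largest called difference in each direction in 21 gene lists, every activation landmark, and the genes on either side of the threshold. Other list members were chosen after their values were seen, and some genes are not reported here. The members and lists were chosen with earlier results of these data known. Alternatives covered normalization, filters, test, cell filters, cell class, depth, a replicate block, and each library left out, and 3 more were added after seeing the data (stimulated cells with percent.mt of 10 or more, CD4-class cells without gamma-delta receptor UMIs, and stimulated cells matched on UMIs per cell). Sums were made in Python 3.11.15 (pandas 2.3.3, numpy 2.4.6, scipy 1.17.1) and plots with matplotlib 3.10.9.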

Additional observations from a re-analysis of the deposited data

Results flagged for a closer look

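The named genes below responded differently to stimulation in SDHA-KO and WT by the test of the difference itself (edgeR's quasi-likelihood test, adjusted over all genes tested). Values are differences of the log2 response, SDHA-KO minus WT.

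Lost induction held Ndrg1 (-3.47), Ankrd37 (-3.23), Gbe1 (-2.73), Aldoc (-3.88), Selenbp1 (-3.68), mt-Nd6 (-1.84), Ndufv3 (-1.50) and Lss (-3.32). Blunted induction held Atf3 (-6.39), Ccnb2 (-3.33), Ifitm2 (-3.20), Mki67 (-1.66), Tnfrsf9 (-1.14), Npm1 (-0.55), Chaf1a (-1.92), Nuf2 (-5.66), Slc7a5 (-1.12), Il2ra (-0.84), Tfrc (-0.70), Tnfrsf4 (-0.73), Slc2a1 (-0.86) and Ldha (-0.88). Enhanced induction held Ccl4 (6.08), Tnip3 (4.44), Serpine2 (3.38), Ifng (3.16), Dusp5 (0.62), Lag3 (2.07) and Pdcd1 (1.17). Gained induction held Ccl3 (8.51), Prf1 (2.78), Mgmt (2.43), Bysl (0.78), Gzmc (6.24) and Tnfrsf10b (1.47). Lost repression held Ly6c1 (3.34), Ms4a4c (2.93) and Klrd1 (2.62). Blunted repression held Ifi214 (4.30), Ifi206 (2.31), Ifi209 (2.10), Il7r (1.41), Rtp4 (3.21), Fos (0.68), Klf2 (1.18) and Tcf7 (0.48). Enhanced repression held Gm11867 (-2.13), Tsc22d3 (-1.83), St6gal1 (-1.60) and Ltb (-1.03). Gained repression held Ddit3 (-2.53), Rora (-1.66), Bcl2 (-1.57), Idh1 (-2.09) and Dhx58 (-1.45). Neither genotype met the 2-fold limit for mt-Nd1 (0.43), Ndufb10 (0.70), Idh2 (0.40), Pttg1 (0.69) and Tex14 (0.74).

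In the stimulated cells with 10% or more mitochondrial UMIs, which the comparison leaves out, 2260 genes were called in the difference against the same unstimulated cells.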

How the results depend on the processing

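As fitted, 2232 genes were called, 965 positive and 1267 negative; induction was weaker in SDHA-KO for 540 and stronger (enhanced or gained) for 299, and repression weaker for 330 and stronger for 255. Of the values of named genes under 29 alternatives, 1952 kept their side of the threshold, 263 lost the call, 66 gained one and 8 reversed. A change of sign counted as reversed only where the main fit or the alternative was called. The 1952 thus include sign changes of uncalled genes, such as Sdha in matched cells (0.13) and with all deposited cells (0.04). Of the list medians 546 moved by no more than the median standard error of their members' differences, and 62 moved by more. The differences counted as reversed were mt-Nd1 with all deposited cells (-0.27), Sdha (0.54), Npm1 (0.0739), Lag3 (-2.55), Klf2 (-0.16) and Tcf7 (-0.0400) in the CD8 class, and Sdha (1.02) and Tfrc (0.00862) in stimulated cells with 10% or more mitochondrial UMIs. The cause was not tested for these or for the counts that follow. Without composition normalization, induction was weaker for 476 and stronger for 502 genes, and stronger repression was called for 155, and with DESeq2 stronger repression for 167. With all deposited cells 4116 genes were called, 2377 of them positive, with 563 for weaker and 760 for stronger induction, 511 for weaker repression and 473 for stronger repression. Cells thinned to 5000 UMIs gave 777 negative calls and 166 for stronger repression. The CD8 class gave 1397 calls, 642 positive and 755 negative, with 229 for weaker and 277 for stronger induction, and 151 for weaker and 307 for stronger repression. The classes in equal weight, with fewer cells, gave 1134 calls, 471 positive and 663 negative, with 264 for weaker and 167 for stronger induction and 157 for weaker repression. A minimum change of 1.2-fold gave 1132 calls, 477 positive and 655 negative, with 147 for stronger induction, 215 for weaker and 144 for stronger repression. Stimulated cells with 10% or more mitochondrial UMIs gave 413 calls of weaker induction and 425 of stronger repression. Cells matched on UMIs gave 431 calls of weaker and 611 of stronger induction, 211 of weaker and 496 of stronger repression. Leaving out 1 library gave 1093 calls (without unstimulated WT library 2) to 2311 (without stimulated SDHA-KO library 1), with 428 to 1257 positive, 665 to 1113 negative, 340 to 509 for weaker and 128 to 396 for stronger induction, and 168 to 395 for weaker and 132 to 244 for stronger repression. With a replicate block 1977 genes were called, 1903 of them shared. That block ended the calls of Pdcd1 (adjusted p = 0.0509), Lag3 (0.057), Fos (0.0532), Idh2 (0.0594), Nuf2 (0.0505) and Tex14 (0.0595). Deviations of same-numbered libraries correlated at -0.0496 to -0.0281 between unstimulated WT and the other groups. Among the other groups they correlated at 0.198 to 0.217. The labels do not state whether equal numbers pair the samples, and the main fit used no block. No scaling moved the median of all genes by more than 0.0946. The fit with cells of 10% or more mitochondrial UMIs in every library was not run, because the unstimulated libraries held 0 to 2 such cells. Genes near 0 in unstimulated cells, such as Atf3 and Nuf2, are limited by depth.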
